A study of Homo sapiens with 2 samples.

Results

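Of 8906 distal LDB1 peaks in NB4 cells, 2087 held none of the 5 sequence motifs of the factors that usually stand beside LDB1. A peak counted as distal when its midpoint lay over 1000 bp from every transcription start site (TSS) of GENCODE release 44. It counted as motif-free when the 200 bp centred on the midpoint (build hg38) held no match on either strand to the motifs of GATA factors, basic helix-loop-helix factors (E-box), AP-1, ETS factors and RUNX factors. The deposited list held 11046 peaks, of which 2140 lay near a TSS and were set aside, and 6819 were distal peaks that carried a motif. The member nearest to the distance limit lay 1006 bp from a TSS and the nearest motif-free peak on the other side lay 999 bp from one.

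NB4 is an acute promyelocytic leukaemia cell line. CUT&Tag, which cuts and tags DNA beside an antibody-bound protein, was done in 1 library with an LDB1 antibody, labelled LDB1 overexpression, and in 1 library with IgG, labelled untreated. The peak list belonged to the LDB1 library, and the IgG library was not analysed here. There were no replicates, so no condition was compared, the intervals in parentheses are at 95% and hold only the counting error of this library, whose peaks are not replicates.

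LDB1 is a nuclear adaptor that binds no DNA by itself. Its LIM-interaction domain holds LMO2 or related LIM proteins, which bridge it to TAL1 or LYL1 paired with an E protein on an E-box and to a GATA factor on a GATA site, and its dimerization domain lets a pair of such complexes meet. RUNX, ETS and AP-1 proteins are common neighbours of this complex at blood enhancers.

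The searched letters were A or T, then GATA, then A or G for the GATA motif; CAG, A or C, TG for the E-box; TGA, C or G, TCA for AP-1; A or C, then GGAAGT for ETS; and TG, C or T, GGT for RUNX. Among the 8906 distal peaks 49.4% held the GATA motif, 34.2% the E-box, 20.6% RUNX, 9.89% AP-1 and 6.06% ETS in the central 200 bp.

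Central windows of 4 members at genes of the complex, of the longest member, and of the member with the most kinds of other motif are printed here, 5′ to 3′ on the plus strand of hg38, to show the letters of these peaks. Capitals mark matches to the 8 other motifs that were more frequent in the members than in motif-free flanks (listed with their letters further on).
LMO2 upstream, chr11:33892992-33893191: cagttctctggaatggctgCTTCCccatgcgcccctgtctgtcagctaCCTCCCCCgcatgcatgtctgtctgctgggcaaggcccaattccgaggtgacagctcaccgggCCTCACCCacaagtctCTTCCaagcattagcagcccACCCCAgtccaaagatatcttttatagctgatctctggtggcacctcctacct
GATA1 upstream, chrX:48783079-48783278: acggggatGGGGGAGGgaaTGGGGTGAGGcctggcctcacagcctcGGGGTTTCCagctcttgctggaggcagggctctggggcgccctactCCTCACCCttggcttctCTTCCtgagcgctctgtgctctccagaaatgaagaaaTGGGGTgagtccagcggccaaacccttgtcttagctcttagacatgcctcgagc
ZFPM1 intron, chr16:88496130-88496329: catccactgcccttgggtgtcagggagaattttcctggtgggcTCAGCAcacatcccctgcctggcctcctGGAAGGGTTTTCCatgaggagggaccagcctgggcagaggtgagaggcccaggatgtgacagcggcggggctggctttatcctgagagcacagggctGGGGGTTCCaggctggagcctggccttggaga
RUNX1 intron, chr21:34995003-34995202: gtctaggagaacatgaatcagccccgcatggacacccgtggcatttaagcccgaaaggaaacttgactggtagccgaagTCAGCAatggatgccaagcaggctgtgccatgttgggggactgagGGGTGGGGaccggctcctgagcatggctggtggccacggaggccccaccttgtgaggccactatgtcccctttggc
Longest member, chr15:74391207-74391406: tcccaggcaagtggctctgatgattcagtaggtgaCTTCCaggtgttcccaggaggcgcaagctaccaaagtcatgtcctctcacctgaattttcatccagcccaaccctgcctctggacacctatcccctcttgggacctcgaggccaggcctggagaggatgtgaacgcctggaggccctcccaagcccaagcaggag
Most kinds of motif, chr19:9075514-9075713: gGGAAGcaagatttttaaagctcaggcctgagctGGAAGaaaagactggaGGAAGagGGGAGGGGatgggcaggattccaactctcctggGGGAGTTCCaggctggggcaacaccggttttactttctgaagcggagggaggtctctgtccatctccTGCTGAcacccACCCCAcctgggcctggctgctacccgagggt
The LMO2, GATA1 and ZFPM1 windows each held at least 3 of the 8 kinds, the longest member held 1, and the last window held 5, the highest number among members. Of the 2087 members, 354 (17.0%) held none of the 8, against 766 (11.2%) of the other distal peaks. Part of this contrast follows from the rule, since the shorter ETS and looser RUNX letters among the 8 lie within motifs that it excluded.

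To place the number of members, the same search was made in other DNA. The members were 23.4% (22.6 to 24.3) of distal peaks, while windows centred 1000 bp to either side of the distal peaks lacked all 5 motifs in 7432 of 17811 cases (41.7%, 41.0 to 42.5). Adjoining 200 bp windows of the genome over 1000 bp from a TSS lacked them in 39.8% of 13505843 windows, and in 44.1% once weighted to the GC content of the distal peaks. Over all peaks the motif-free share was 24.8%, and in peaks near a TSS it was 30.3% (28.4 to 32.3). Motif-free sequence was thus less frequent under distal LDB1 peaks than beside them.

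From the class of 45 to 50% GC upward, the motif-free share rose with the GC content of the window. Below that class there was no steady rise, with 19.6% (17.4 to 21.9) at 40 to 45% GC. The share was 15.0% (11.0 to 20.3) of 226 distal peaks with 35 to 40% GC and 19.0% (17.5 to 20.5) of 2474 with 45 to 50%. It was 33.0% (29.7 to 36.5) of 724 with 60 to 65% and 51.9% (38.7 to 64.9) of 52 with 70 to 75%. Genome windows of the same GC classes rose less, from 38.5% to 41.5%, 46.7% and 58.5%. The interval of the peaks lay under the genome share in each class from 35 to 70% GC and held it at 70 to 75% GC.

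**Figure D1:**
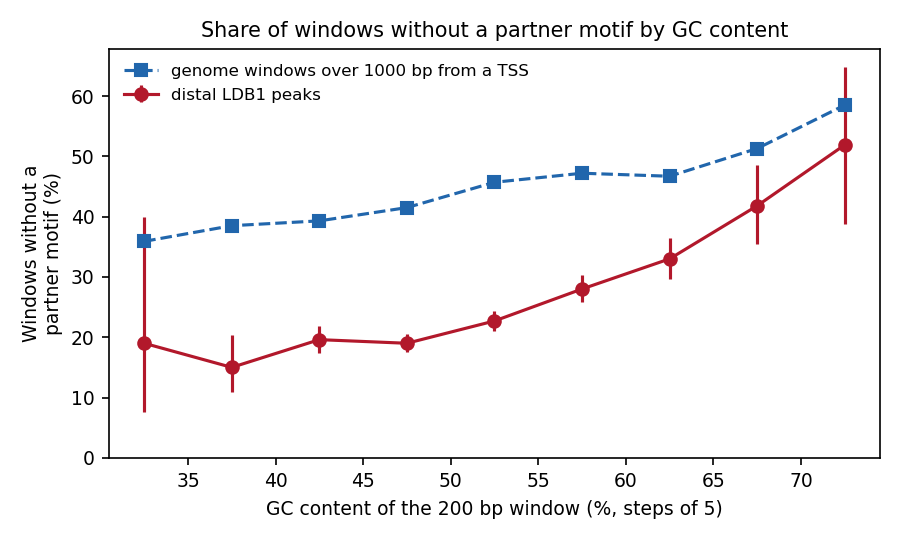
The horizontal axis is the GC content of the 200 bp window in steps of 5% and the vertical axis the percentage of windows without a partner motif, with circles for distal LDB1 peaks (bars, 95% Wilson intervals) and squares for genome windows over 1000 bp from a TSS. The peaks stood at 15.0% at 35 to 40% GC, 19.0% at 45 to 50% GC and 51.9% at 70 to 75% GC. Genome windows stood at 38.5%, 41.5% and 58.5% in these classes. The first class, 30 to 35% GC, held 21 peaks, of which 19.0% were motif-free, against 35.9% of genome windows.

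The members had a mean GC content of 52.9% ± 7.22 (SD over 2087 windows). The other distal peaks had 50.8% ± 6.46, the motif-free flanks 47.9% ± 9.98 and motif-free genome windows 41.1% ± 9.30. CpG, the dinucleotide that is methylated in most of the genome and spared in CpG islands, occurred 3.55 times per window in members, 2.86 times in the other distal peaks and 3.44 times in motif-free flanks. Windows with over 50% GC and a CpG count above 0.6 of that given by base composition, a loose criterion of a CpG island, were 3.59% of members and 1.61% of the others, a difference of 1.98 points (1.19 to 2.91). They were 4.26% of motif-free flanks, where the difference had an interval that held 0 (members minus flanks, -1.95 to 0.562), and 5.78% of all peaks. The difference in mean GC between members and the other distal peaks was smaller than the SD of either, while motif-free genome windows lay below the members by more than either SD.

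Members were shorter than the other distal peaks at the median and reached a like length at the upper quartile. Their median length was 399 bp (386 to 408) with quartiles of 285.5 and 664 bp, against 459 bp (453 to 466) with quartiles of 323 and 657 bp. The shortest member was 229 bp and the longest 4469 bp long. Sorted by length, the motif-free share was 30.7% (28.8 to 32.7) of distal peaks of 229 to 313 bp, 22.8% (21.1 to 24.6) at 314 to 446 bp, 16.3% (14.9 to 17.9) at 447 to 659 bp and 23.8% (22.1 to 25.6) at 660 to 4856 bp. The share was therefore lowest in the third of these 4 length classes and higher again among the longest peaks, and the intervals of these neighbouring classes did not overlap.

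Most members carried a partner motif outside the central window. Of the 2087, 1389 (66.6%, 64.5 to 68.5) held one wholly outside the window but inside the peak, against 72.0% (71.0 to 73.1) of the other distal peaks, a difference of 5.49 points in favour of the others (interval of members minus others, -7.80 to -3.23). The share depended on length, from 33.1% of members of 229 to 313 bp to 98.3% of those of 660 bp or more. Among peaks of at least the median length of all peaks the difference took the opposite sign, with 92.3% of members, 2.32 points (0.150 to 4.21) more than of the others.

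These outer motifs were more frequent than in DNA of equal length beside the peak. Intervals of the same shape, shifted beyond the peak on each side, held a partner motif in 57.7% (56.2 to 59.2) of 4174 cases. By motif, GATA was outside the window in 46.4% (44.3 to 48.5) of members against 35.6% of the shifted intervals, the E-box in 37.2% (35.1 to 39.3) against 29.2%, RUNX in 26.7% (24.9 to 28.7) against 23.9%, ETS in 10.3% (9.02 to 11.6) against 8.39%, and AP-1 in 9.73% (8.53 to 11.1) against 5.51%. The intervals of each pair did not overlap for GATA, E-box and AP-1 (34.2 to 37.1, 27.8 to 30.6 and 4.86 to 6.24 in the shifted intervals), and they overlapped for RUNX (22.6 to 25.2) and ETS (7.58 to 9.26).

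By distance from the midpoint, the partner motifs of members were more frequent in the 100 bp outside the window than farther away. In steps of 50 bp, a partner motif fell in 29.5% of steps 100 to 150 bp from the midpoint, 29.2% at 150 to 200 bp and 20.4% at 900 to 1000 bp, with ratios to the last of 1.44 (1.36 to 1.54) and 1.43 (1.34 to 1.52). At 100 to 150 bp the ratio was 2.43 (1.84 to 3.21) for AP-1, 1.70 (1.53 to 1.88) for GATA, 1.44 (1.27 to 1.63) for the E-box, 1.25 (1.06 to 1.46) for RUNX and 1.28 (0.962 to 1.71) for ETS, and at 150 to 200 bp it was 1.71 (1.54 to 1.89) for GATA and 1.33 (1.00 to 1.77) for ETS. GATA was in 14.5% of steps at 100 to 150 bp in members and in 14.8% in the other distal peaks. Where a member held a partner motif in the peak at all (1440 peaks, those with a motif across the window's edge included), the nearest one was a median of 130 bp from the midpoint, with quartiles of 110 and 162 bp. The rule keeps whole motifs out of the central window and the search ended at the peak edge, so both bound this distance.

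**Figure D2:**
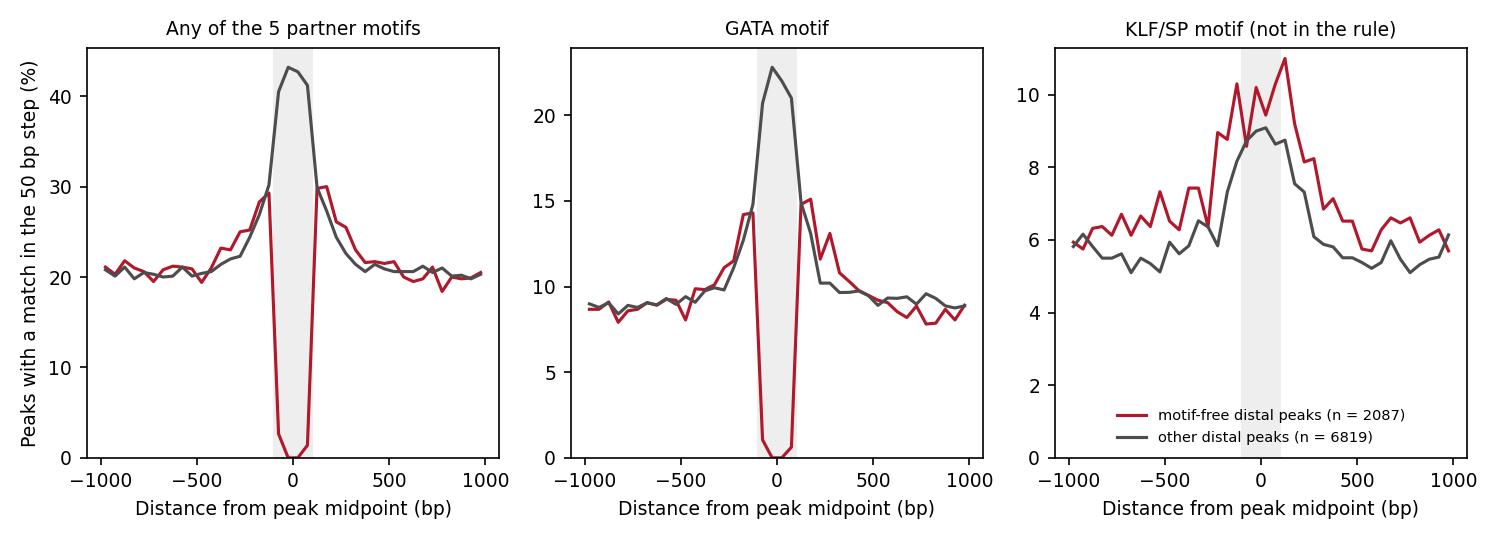
The horizontal axes are the distance from the peak midpoint in bp and the vertical axes the percentage of peaks with a motif centred in each 50 bp step, in red for the 2087 motif-free distal peaks and in grey for the 6819 other distal peaks, with the central 200 bp shaded. The red line is near 0 in the shaded part by the rule in the first 2 panels; outside it members reached 29.5% for any partner motif and 14.5% for GATA at 100 to 150 bp, and the KLF/SP motif, which the rule did not use, was in 9.62% of member steps at 0 to 100 bp, 10.6% at 100 to 150 bp and 5.92% at 900 to 1000 bp.

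The 647 of 2087 members without a partner motif anywhere in the peak were mostly short. Their median length was 274 bp (267 to 281), 548 of them (84.7%) were under 400 bp, and the longest was 935 bp. That longest one, chr22:39623598-39624532 in an intron of CACNA1I, which encodes a T-type calcium channel subunit, is shown by its central window because of its base pattern.
CACNA1I intron, chr22:39623966-39624165: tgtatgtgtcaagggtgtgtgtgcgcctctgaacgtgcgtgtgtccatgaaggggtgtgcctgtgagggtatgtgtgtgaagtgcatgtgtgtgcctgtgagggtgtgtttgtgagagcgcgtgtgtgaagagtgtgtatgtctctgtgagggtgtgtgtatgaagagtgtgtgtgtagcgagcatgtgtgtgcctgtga
It consisted of alternating TG with interruptions, was 53.0% GC, held none of the 8 motifs in capitals elsewhere, and had no 31-base stretch that occurred again in hg38. Another peak lay 259 bp away.

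Beyond the rule, 26 other motifs were searched in the same windows. In members against their 1736 motif-free flanks, the ratio of shares had an interval above 1 for 8 motifs and below 1 for 3. Since members were richer in G and C than flanks, each share was also set against motif-free genome windows weighted to the GC content of the members, where 10 motifs lay above 1 and 3 below. Both comparisons put 4 motifs above 1: FOX, MYB, the MAF half-site and the ETS core.

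The FOX motif (TGTTTAC), read by forkhead factors, was in 59 members (2.83%) and 27 motif-free flanks (1.56%), a ratio of 1.82 (1.16 to 2.85). The GC-weighted genome share was 1.48%, which gave a ratio of 1.91 (1.48 to 2.45). The flank ratio depended on the choice of windows: it was 1.17 (0.851 to 1.60) against all flanks and 1.05 (0.482 to 2.30) for members free of partner motifs over the whole peak, and 3.10 (1.43 to 6.72) in peaks of at least the median length. The MYB motif (AACNGCC), the site of the MYB factors of immature blood cells, was in 179 members (8.58%) and 5.88% of flanks, a ratio of 1.46 (1.15 to 1.85), with 1.43 (1.25 to 1.65) against the genome and 1.47 (0.896 to 2.42) against flanks for members free over the whole peak. The MAF half-site (TGCTGA) is a part of the site bound by small MAF proteins, which pair with NFE2. It was in 366 members (17.5%) and 12.0% of flanks, with ratios of 1.46 (1.24 to 1.71) and 1.34 (1.22 to 1.47). The ETS core (GGAAG), a shorter form of the ETS letters of the rule, was in 1033 members (49.5%) and 42.0% of flanks, with ratios of 1.18 (1.10 to 1.26) and 1.09 (1.05 to 1.14).

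The remaining 4 motifs above their flanks did not pass the GC-weighted comparison. KLF/SP (CCNCNCCC), the GC-rich box of KLF and SP zinc finger factors, was in 600 members (28.7%) and 20.4% of flanks, a ratio of 1.41 (1.26 to 1.58), and 1.04 (0.971 to 1.11) against the genome share of 27.7%. NFKB (GGGNNTTCC) gave 1.62 (1.13 to 2.33) and 1.19 (0.964 to 1.46), and USF/MYC (CACGTG) gave 1.46 (1.03 to 2.06) and 1.21 (0.982 to 1.49). The loose RUNX form (TGNGGT) gave 1.18 (1.07 to 1.30) against flanks and 0.965 (0.907 to 1.02) against the genome. For each of these 4 the interval against genome windows of like GC content held 1.

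MEF2 (CTANNNNTA), an AT-rich motif of muscle and myeloid regulators, was below 1 in both comparisons, with 296 members (14.2%) against 22.8% of flanks, ratios of 0.622 (0.542 to 0.713) and 0.648 (0.583 to 0.719). The IRF motif (GAAANNGAA) was below 1 against flanks at 0.714 (0.549 to 0.930) and at 1.03 (0.850 to 1.25) against the genome. The bare GATA letters, which the rule left in when the next base on either side differed, were in 706 members (33.8%), with opposite ratios of 0.879 (0.808 to 0.957) against flanks and 1.19 (1.12 to 1.27) against the genome. The loose AP-1 form (TGANTCA) was at 1.53 (1.19 to 1.97) against the genome with 59 members, and at 1.14 (0.774 to 1.68) against flanks. CEBP (TTGCNNAA), MEIS (TGACAG) and NFY (CCAAT) were at 1.25 (1.07 to 1.45), 1.15 (1.04 to 1.27) and 1.10 (1.02 to 1.20) against the genome, with flank intervals that held 1. The nuclear receptor half-site (AGGTCA) and the general E-box (CANNTG, which includes USF/MYC) were below 1 against the genome, at 0.891 (0.814 to 0.974) and 0.964 (0.928 to 0.999). Against flanks they were at 1.11 (0.967 to 1.27) and 1.01 (0.952 to 1.06). For NRF1, YY1, STAT, TEAD, GFI1 and CRE both intervals held 1.

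The motif of CTCF, the insulator protein, was in 11 members, 0.527% against 0.205% of the other distal peaks, a ratio of 2.57 (1.17 to 5.65). Against the GC-weighted genome the ratio was 3.09 (1.72 to 5.51), and against the flanks, where 3 windows held it, 3.05 (0.852 to 10.9). The letters of internal tRNA promoters were near their genome share, with 60 members for the A box (1.04, 0.807 to 1.33) and 2 for the B box. Set against the other distal peaks, MAF and ETS core lay lower in members (0.835, 0.752 to 0.926, and 0.903, 0.860 to 0.947), while FOX (1.00, 0.753 to 1.34), MYB (0.908, 0.775 to 1.06) and KLF/SP (0.994, 0.920 to 1.07) had intervals that held 1. STAT (0.728, 0.582 to 0.910) and TEAD (0.678, 0.502 to 0.916) also lay lower in members. The MEF2 interval held 1 in this comparison (0.925, 0.821 to 1.04). Of the 8 motifs above their flanks, USF/MYC at 1.36 (1.06 to 1.74) and NFKB at 1.28 (1.00 to 1.64) had an interval above 1 against the other distal peaks. The ratios to the other distal peaks, that of CTCF included, were not weighted for GC content. Mean GC content was 52.9% in members and 50.8% in those peaks. The rule itself lowers the ETS core, loose RUNX, loose AP-1 and bare GATA letters in members against those peaks, since these letters lie within the motifs it excluded. MAF half-sites can overlap AP-1 sites.

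**Figure D3:**
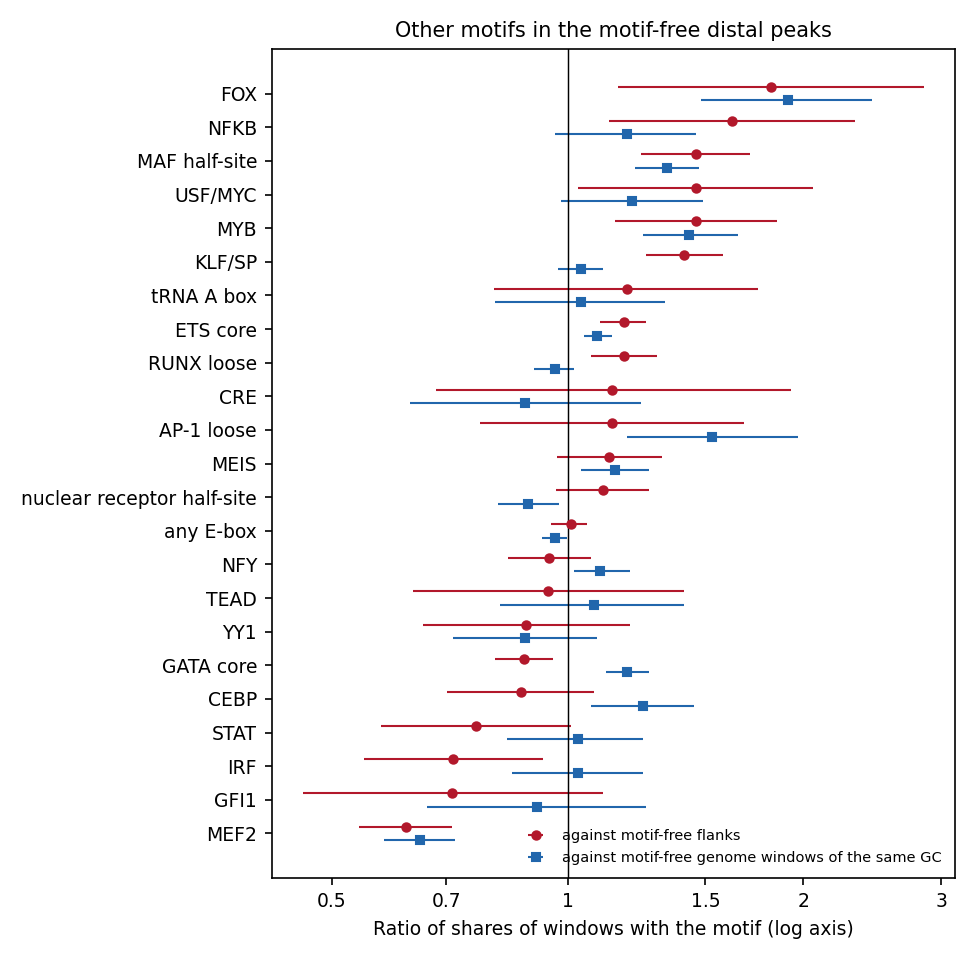
Each row is 1 of the motifs found in 20 members or more, and the horizontal axis (log scale) is the ratio of the share of members with the motif to the share of motif-free flanks (circles) or of motif-free genome windows weighted to the same GC content (squares), with 95% intervals. The MAF half-site stood at 1.46 and 1.34 and MEF2 at 0.622 and 0.648, while the KLF/SP ratio was 1.41 against flanks and 1.04 against the genome.

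Words of 8 bases gave no dominant sequence. Of 5545 words in at least 1% of members, 817 (14.7%) were at a ratio of 2 or more to motif-free flanks. That filter favours words of the members: among the 7017 words in at least 1% of members or of flanks, 817 were at 2 or more and 835 at 0.5 or less. The ratios are not weighted for GC content and are a description. The highest ratios belonged to CTTAGGCC and GTCCACAC, each in 24 members and 2 flanks (9.98, 2.36 to 42.2). ACATACCC was in 22 members and 2 flanks, and GATCAACA in 28 members and 3 flanks. GAGTGACC (23 members), GGATGTGA (22), ACAGGGTA (21), AGAACCAC (21), GAGAGTCA (28) and GGGTTAAA (34) made up the rest of the 10 highest. Of these 10, GATCAACA and GGGTTAAA came largely from 1 family of repeated sequence, with 19 of their carriers each in the second family described below.

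Repeated sequence was more frequent in members than in the other distal peaks and less frequent than in motif-free flanks. The central 31 bases had at least 1 further copy in hg38 in 317 members (15.2%, 13.7 to 16.8) and in 10.5% (9.81 to 11.3) of the others, a difference of 4.67 points (3.02 to 6.43). The share over all peaks was 10.7%. In motif-free flanks it was 20.4% (18.6 to 22.4), a difference of members minus flanks of -5.20 points (-7.66 to -2.77). In all flanks of members it was 16.7% (15.6 to 17.8), where the interval of the difference held 0 (-3.34 to 0.479). Beside the peaks, too, windows without a partner motif thus had a repeated centre more often (20.4%) than all flanks did (16.7%). The higher share of repeated centres in motif-free windows was therefore not particular to the peaks. Within GC classes the order of members and others held, at 12.8% and 8.81% under 45% GC, 19.6% and 13.1% at 45 to 50%, 20.6% and 13.0% at 50 to 55%, and 9.30% and 5.70% at 55% or more.

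By number of copies, the centre occurred 2 to 9 times in 172 members, 10 to 99 times in 49, 100 to 999 times in 65 and 1000 times or more in 31. The class of 100 to 999 copies was 3.11% (2.45 to 3.95) of members and 1.36% (1.11 to 1.67) of the others, while 1000 or more was 1.49% (1.05 to 2.10) and 1.17% (0.944 to 1.46). Short tandem repeats of 20 bases or more were in 2.01% of members, 1.25% of the others and 3.97% of motif-free flanks. Members with a repeated centre had a median length of 368 bp (342 to 387) and 51.6% GC ± 6.17 (SD, 317 windows). Reads from repeated sequence can be placed at more than 1 site, how such reads were handled is not given in the sources used here, and their part in these peaks was not tested.

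**Figure D4:**
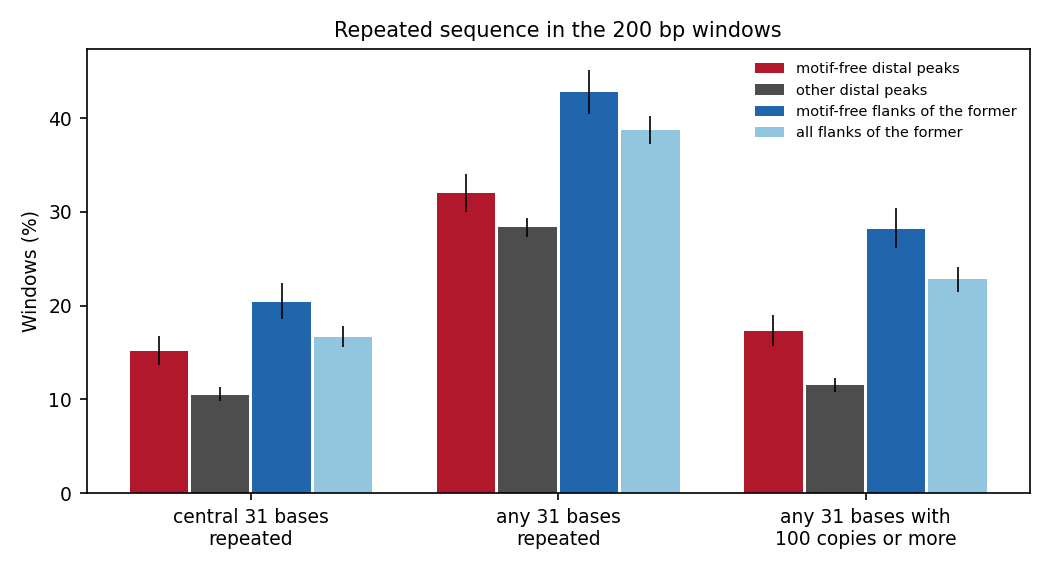
The vertical axis is the percentage of 200 bp windows whose central 31 bases, any 31 bases, or any 31 bases with 100 copies or more recur in hg38, for members, other distal peaks, motif-free flanks and all flanks of members, with 95% Wilson intervals as bars. Members stood at 15.2% for the centre, between 10.5% in the other distal peaks and 20.4% in motif-free flanks.

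Compared with each other by blastn at 80% identity over 50 bases or more, 464 members (22.2%, 20.5 to 24.1) fell into 29 families of like sequence, the largest of 365 windows. Of these 464, 249 had a repeated centre, against 68 of the 1623 members in no family. When all distal windows were compared, 25.8% (23.9 to 27.7) of members and 22.9% (21.9 to 23.9) of the others resembled at least 1 other window, a difference of 2.92 points (0.824 to 5.07). At 90% identity 315 members remained in 28 families, of which the 4 largest are described by their windows.

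The largest of these, with 190 windows, lay on 22 chromosomes. Of its windows 107 had a repeated centre, with up to 65288 copies, and 116 of its peaks carried a partner motif outside the window. Its median peak length was 376 bp, its mean GC content 50.9% ± 4.11 (SD), and 105 of the 190 peaks had another peak within 5 kb.

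The second family held 44 windows on 17 chromosomes, of which 35 had a repeated centre, with up to 1588 copies and a median of 174. Its peaks were 236 to 1270 bp long and 32 of them carried a partner motif outside the window. Another peak lay within 5 kb of 17 of the 44.

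The third family held 13 windows with 55.7% GC ± 3.07 (SD), of which 11 had a repeated centre, and 1 of its peaks had another peak within 5 kb. The fourth held 12 windows with 51.5% GC ± 2.17 (SD), of which 7 had a repeated centre. Of these 12 peaks 9 carried a partner motif outside the window and 1 had another peak within 5 kb.

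Members had another peak close by more often than the other distal peaks. A further peak of any kind began or ended within 5 kb of 1046 members (50.1%, 48.0 to 52.3), against 39.9% (38.7 to 41.0) of the others, a difference of 10.3 points (7.82 to 12.7), and 42.9% of all peaks. Within 1 kb the shares were 28.5% (26.6 to 30.4) and 20.2% (19.2 to 21.1). A peak with a partner motif in its central window lay within 5 kb of 41.8% of members and 32.1% of the others, a difference of 9.70 points (7.32 to 12.1).

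The difference was present at each length. At 229 to 313 bp it was 44.2% (40.5 to 47.9) against 34.5% (32.2 to 36.9), at 314 to 446 bp 47.5% (43.2 to 51.9) against 38.6% (36.3 to 40.9), at 447 to 659 bp 52.9% (47.8 to 57.9) against 35.8% (33.7 to 38.0), and at 660 bp or more 58.4% (54.2 to 62.5) against 50.6% (48.2 to 52.9). By GC content the shares were 46.6% and 34.2% under 45% GC, 44.8% and 37.3% at 45 to 50%, 51.0% and 41.5% at 50 to 55%, and 53.9% and 44.8% at 55% or more. With centres that occur once in hg38 the difference was 10.3 points (7.64 to 12.9).

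**Figure D5:**
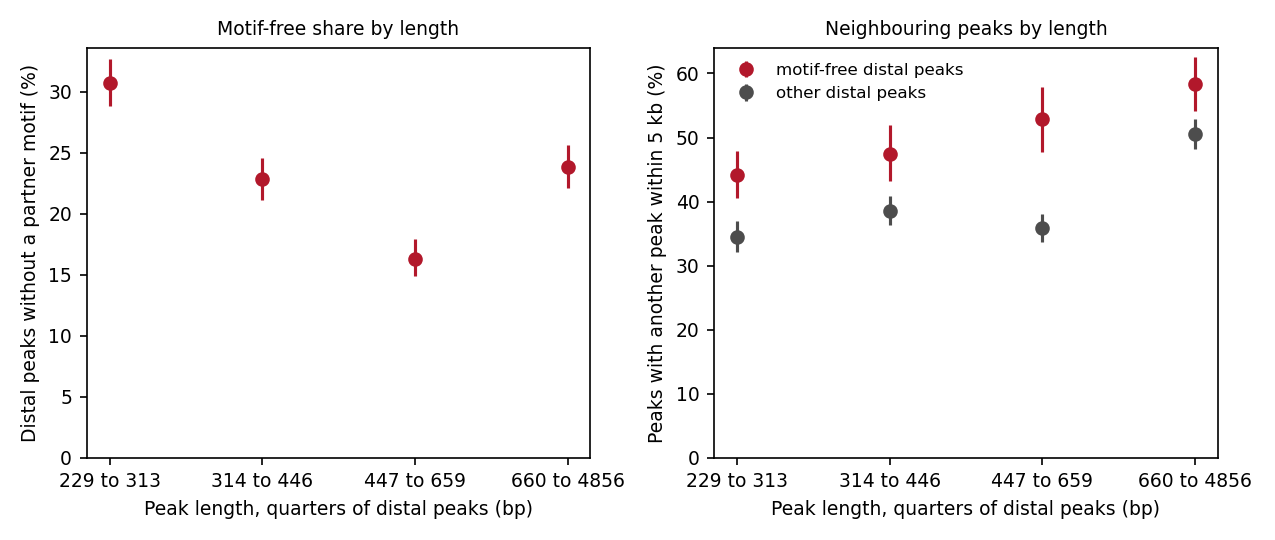
Left, the percentage of distal peaks without a partner motif in each of 4 classes of peak length (bp); right, the percentage of motif-free distal peaks (red) and of other distal peaks (grey) with another peak within 5 kb in the same classes, with 95% Wilson intervals. The motif-free share was lowest, 16.3%, at 447 to 659 bp, and members lay above the others in all 4 classes on the right.

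In the gene map members lay much as the other distal peaks did. Their midpoints were in introns for 1232 (59.0%, 56.9 to 61.1), between genes for 713 (34.2%) and in exons for 142 (6.80%), against 57.6%, 36.7% and 5.72% of the others. The intron difference of 1.41 points had an interval that held 0 (-1.01 to 3.81), and the intergenic share was lower in members by 2.50 points (interval of members minus others, -4.81 to -0.144). The median distance to a TSS was 8172 bp (7728 to 8600) in members and 8421 bp (8128 to 8808) in the others.

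Members occurred on 23 chromosomes and made up from 17.4% (12.0 to 24.4) of the distal peaks of chromosome 13 to 30.2% (21.5 to 40.6) of those of chromosome 21. The megabase with the most members was chr16:85000001-86000000 with 19, all of them in GSE1. A stretch at chr1:121000001-122000000 held 14 members, of which 13 had a repeated centre, and chromosome 1 as a whole held 64 of the 317 members with a repeated centre.

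In all, 1076 members lay within 836 protein-coding genes, 177 of which held more than 1. GSE1 (chr16:85169525-85676204, 507 kb) held 19 of its 44 distal peaks as members, with lengths from 249 to 3703 bp, and 1 of them had a repeated centre. SRGAP2C, a human-specific partial duplicate of the neuronal gene SRGAP2, held 9 members among 21 distal peaks, 8 with a repeated centre, so the placement of its reads among the paralogues is uncertain. ZMIZ1, a transcriptional coregulator related to the PIAS proteins, held 8 of 16. MRPS22, a protein of the mitochondrial ribosome, held 7 of 20, and SLC22A23, an orphan solute carrier, held 7 of 11. None of the members in ZMIZ1, MRPS22 and SLC22A23 had a repeated centre.

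The 10 longest members with a centre found once were 2970 to 4469 bp long, and each carried a GATA motif elsewhere in the peak, from 2 to 9 matches. All 20 intervals of the same lengths shifted beyond these peaks held one too, from 1 to 8 matches. The longest (chr15:74389072-74393540) lay between genes, 12223 bp from the nearest TSS, with CYP11A1, which makes the first step of steroid synthesis, as nearest protein-coding gene. It held 8 GATA matches and 8 E-box matches, the nearest partner motif 132 bp from the midpoint, and its neighbour 327 bp away was itself a long member free of partner motifs over all of its 832 bp (chr15:74387913-74388744). Next came 3703 bp in an intron of GSE1, 3622 bp in an intron of PXN, which encodes the focal adhesion protein paxillin, and 3606 bp downstream of GFI1B, a repressor of the erythroid and platelet lineages. The GFI1B member (chr9:133001829-133005434) held 5 GATA and 9 E-box matches, the nearest partner motif 146 bp from the midpoint.

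SMCO1, PTTG1IP, SLC7A5 (a carrier of large neutral amino acids), ZMIZ1, STRBP and again GSE1 followed, at 3586, 3504, 3417, 3368, 3048 and 2970 bp. The SMCO1 member was the one of the 10 without an E-box, with 2 GATA matches, and the one with a 31-base stretch in the central window that recurs. Both GSE1 members lay 902 bp apart. The nearest partner motif was between 132 and 379 bp from the midpoint in the 10.

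Among 45 genes of the LDB1 complex and of blood transcription factors, 21 had a distal peak in the gene or within 3 kb of it and 10 had a member. They held 58 distal peaks, of which 21 were members (36.2%, 25.1 to 49.1), beside 23.4% of all distal peaks. Of these 21, ZFPM1 held 6 (among 10 distal peaks) and CBFA2T3 held 4 (among 5), both on chromosome 16. Peaks of 1 gene are not independent, so the interval is too narrow and the share is no measure of the list as a whole. The central windows of these 21 had 52.5 to 70.5% GC.

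Of the complex itself, LMO2, the LIM protein that bridges LDB1 to DNA-bound partners, had 2 members upstream (598 bp with an E-box elsewhere and 308 bp with GATA and ETS motifs), 404 bp apart, among 4 distal peaks. LYL1, a partner of E proteins, had 1 of 681 bp with a RUNX motif elsewhere, and TCF3, which encodes E proteins, had 1 of 881 bp with GATA and E-box motifs. GATA1, the erythroid GATA factor, had 1 of 979 bp among 4 distal peaks, 3362 bp from a TSS, with GATA, E-box and RUNX motifs outside the window. SSBP3, which encodes a protein that stabilises LDB1, had 2 of 251 and 414 bp among 5. LDB1, TAL1 and GATA2 had distal peaks (1, 1 and 2) and no member.

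ZFPM1 encodes FOG1, the cofactor of GATA1, and had the most members of the list, 6 of 10 distal peaks. They were 270, 398, 427, 748, 1288 and 4088 bp long. The 270, 398 and 427 bp peaks held no partner motif outside the window, and the other 3 each held GATA and E-box motifs. The centre of the 4088 bp peak (chr16:88491164-88495251) occurred 2 times in hg38 and its window was 70.5% GC.

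CBFA2T3, a corepressor that joins the TAL1 and LDB1 complex, had 4 members among 5 distal peaks, of 264 to 410 bp, and the centre of the shortest occurred 8 times. GFI1B had 2 of 253 and 988 bp among 3. RUNX1 had 1 of 243 bp among 5, in an intron 54168 bp from a TSS with no partner motif outside the window. NFE2, the partner of small MAF proteins in erythroid and megakaryocytic cells, had 1 of 243 bp in an exon, which held the MAF letters in its window. IKZF1, with 4 distal peaks, had no member.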

How the data were processed

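Per the labels and the methods of the study, CUT&Tag libraries of NB4 cells were aligned by the authors to hg38 with Bowtie2 2.4.4, and MACS3 3.0 listed the peaks from read pairs. The settings listed in the methods (paired-end mode and a q-value limit for MACS3) name no control file, and those of Bowtie2 no option for reads with several placements. Use of the IgG library as control, removal of duplicates and any filter on such reads are not given in the sources used here, and each could change which short or repeated regions were listed. The deposited table gave the chromosome, start, end and length of each peak of the LDB1 library, with no score, summit or read depth, so the precision of a single peak is unknown. The midpoint stands in for the summit.

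Motifs were searched on both strands with Python 3.11.15 in windows of 200 bp. Flanks were windows centred 1000 bp from the midpoint. Copies of 31-base words were counted on both strands of chromosomes 1 to 22, X and Y. Genome windows were weighted in GC steps of 2%. Families came from blastn (BLAST 2.17.0, E-value 1e-5, no low-complexity filter). Shares have Wilson, differences Newcombe and ratios log-ratio intervals. The steps were tested on simulated sequence. Named genes were those of the 10 longest members with a centre found once, the 5 protein-coding genes with most members and the members at 45 listed genes; CACNA1I, IKZF1 and the listed genes without a member were named after their values were seen. The members, motifs and gene list were chosen with earlier results of these data known. The shared sequences of the repeat families are not reported here.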

Additional observations from a re-analysis of the deposited data

How the results depend on the processing

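No paired analysis was possible because each antibody had 1 library. Of 52 alternatives to 11 results, 29 stayed within the interval, SD or 1.5-fold range of the reported value. The share of motif-free peaks was 47.9% with a window of 100 bp, 6.03% with 400 bp, 7.26% when the whole peak had to be free, and 20.1% in peaks of at least the median length of all peaks. With a window of 400 bp, members had a median length of 412 bp, 62.0% lay in introns, 60.3% had a peak within 5 kb and 19.0% a repeated centre. When the whole peak had to be free, the median length was 274 bp, the intron share 61.4% and the repeated share 19.3%. In peaks of at least the median length, 12.5% had a repeated centre and 92.3% a partner motif elsewhere. A repeated centre was found in 19.2% by the central 24 bases, 7.38% by the central 50 and 32.0% by any 31 bases of the window. Another peak lay within 1 kb of 28.5% and within 20 kb of 68.4%. Families held 17.2% of members at 80% identity over 100 bases and 15.1% at 90% over 50. The 8-base words at a ratio of 2 or more numbered 1462 in long peaks and 1711 among words in at least 0.5% of members. The set of words in at least 1% of members or of flanks was added after seeing the data and gave 817. It could give no other count, since any word in 1% of flanks at such a ratio is also in 1% of members. It is among the 29 alternatives counted above and says nothing of stability.

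With the other distal peaks in place of flanks, 3 motifs lay above 1. KLF/SP (0.994), MYB (0.908), the MAF half-site (0.835), the ETS core (0.903), loose RUNX (0.717) and IRF (1.02) crossed 1. Loose RUNX was 0.859 against all flanks, with or without a partner motif. Without GC weights the ratios to the genome of CEBP (0.704), the nuclear receptor half-site (1.39), NFY (0.778), FOX (0.964), bare GATA (0.674) and loose AP-1 (0.898) crossed 1. The other 116 alternatives of 129 to the motif ratios kept their direction, 17 of them with an interval that came to hold 1. The depth of the library, and so the power to list weak peaks, is unknown.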
